A study of Mus musculus with 16 samples.

Results

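The stathmins and a set of microtubule-associated proteins were followed in cells sorted from mouse dorsal root ganglia after paclitaxel (PTX) or vehicle. The genes were taken from a written list, chosen with earlier results of these data known. They were the stathmins Stmn1, Stmn2, Stmn3 and Stmn4, the microtubule-associated proteins Mtap1b (the older symbol of Map1b), Mapt (tau) and Dcx (doublecortin), and the end-binding proteins Mapre1, Mapre2 and Mapre3 (EB1, EB2 and EB3). All 10 were among the 22609 gene entries of the deposited count files, and all 10 passed the filter on low counts that left 14200 genes for testing.

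Microtubules are the tracks of the axon, and they grow and shrink mainly at one end. Stathmins bind free tubulin dimers and promote shrinkage, MAP1B, tau and doublecortin bind along the lattice and stabilise or space it, and the end-binding proteins mark the growing tip and recruit other factors there. In sensory neurons Stmn2 (SCG10) and Map1b are known for their part in axon growth and regrowth after injury. Paclitaxel, a chemotherapy drug that binds tubulin within the microtubule and stabilises it, can cause a painful sensory neuropathy.

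The animals were male mice aged 8 to 16 weeks. Every group shared floxed Ltbr, which encodes the lymphotoxin-beta receptor. The floxed alleles were present alone (LTβR-fl/fl, called fl/fl) or with a Nav1.8-Cre (called CKO), which aims the deletion at nociceptors, the neurons that use the Scn10a promoter. Each genotype received PTX, 6 mg/kg intraperitoneally 3 times at intervals of 2 days, or vehicle, for which the treatment label reads water. The protocol text of every library, vehicle included, describes PTX, so the treatment groups rest on the labels and titles. WGA-488, a tracer taken up by nerve endings, was given into the paw on day 16 after the final injection, and on day 18 cells that had taken it up, which the design text calls neurons, were sorted from ganglia L3 to L5. The labels give 4 libraries to each of the 4 groups, whereas the design text gives 3 per group. Separate animals behind the replicates are not stated, so a p-value here reflects variation between libraries that could be technical.

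Libraries held 7906504 to 11668007 gene counts. Levels are CPM, computed from counts on each library's TMM-scaled size, in which 1 count was worth 0.0824 to 0.128 CPM. The targeted gene, Ltbr, did not show lower levels under the CKO label: it ranged from 6.06 to 15.6 CPM in PTX fl/fl, 5.88 to 28.4 in PTX CKO, 42.4 to 51.4 in vehicle fl/fl and 32.3 to 99 in vehicle CKO. The labels do not say which exons are floxed, and counts over a whole gene need not register their loss, so genotype names here are those of the labels. The 18 sensory neuron markers held 1.09 to 2.13% of the counts in PTX fl/fl, 0.816 to 2.19% in PTX CKO, 0.0819 to 0.676% in vehicle fl/fl and 0.117 to 0.346% in vehicle CKO. Each of the 18 had counts in every library apart from Isl1 in vehicle CKO replicate 2. The 13 neutrophil markers in the files held 0.562 to 10.5%, 0.0316 to 12%, 8.41 to 18.2% and 7.59 to 19.1% in the same order of groups. Titles carry 1 of 2 dates for PTX (replicates 1 and 2, then 3 and 4) and 1 of 2 other dates for vehicle, so title date and treatment cannot be told apart.

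After PTX, 4 of the 10 genes rose in fl/fl (Stmn2, Stmn3, Mtap1b and Mapt) and none fell. In the libraries labelled CKO, 5 rose (the same genes and Mapre3) and none fell. A gene was called at an adjusted p under 0.05 in edgeR's quasi-likelihood test, adjusted by the Benjamini-Hochberg method over all 14200 genes. Of all genes tested, 4.96% were called in fl/fl (3.2% higher and 1.76% lower) and 2.58% in CKO (2.22% higher and 0.359% lower). The median log2 fold change of the 10 genes was 1.06 in fl/fl and 1.5 in CKO, beside -0.0074 and 0.0163 over all genes. Putting Dcx, which had no count in vehicle CKO, at its lower bound leaves the median in CKO as it is, since it is the highest value either way. At an unadjusted p under 0.05, 6 of the 10 genes passed in each genotype, as did 19.5% and 19.7% of all genes.

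**Figure D1:**
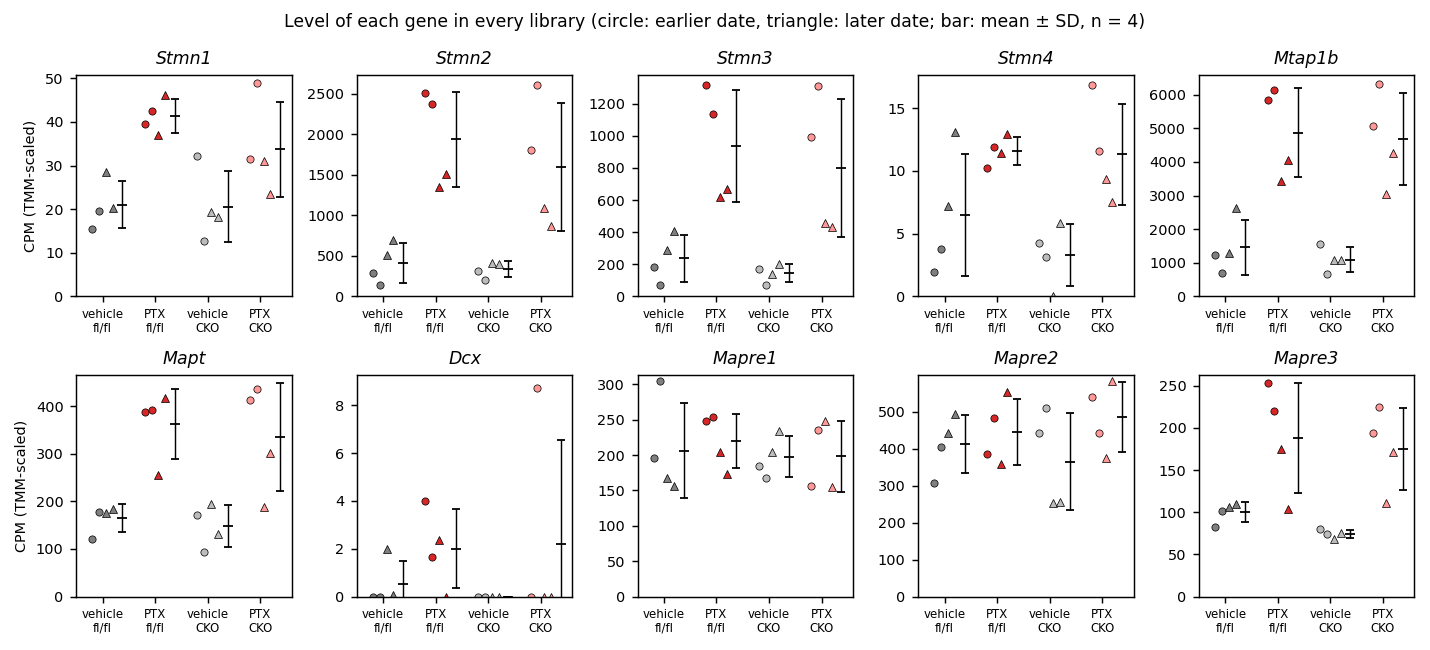
Level of the 10 genes in each of the 16 libraries, in CPM on linear axes starting at 0, by group; circles are libraries of the earlier title date, triangles those of the later one, and bars are the mean ± SD of 4 libraries. Stmn2, Stmn3 and Mtap1b are higher in all 8 PTX libraries than in all 8 vehicle libraries, whereas Mapre1 and Mapre2 overlap in every comparison.

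Among the stathmins, Stmn2 and Stmn3 carried nearly all of the counts and both rose. Stmn2, the neuronal stathmin of growing axons, stood at 2507, 2379, 1354 and 1512 CPM in the PTX fl/fl libraries (replicates 1 to 4) and at 283.6, 140.4, 509 and 695.8 CPM in the vehicle fl/fl libraries. In CKO it stood at 1805, 2615, 1095 and 863.7 CPM after PTX and at 313.7, 203.2, 415.6 and 401.6 CPM after vehicle. The lowest PTX library was thus above the highest vehicle library, and replicates 1 and 2 were the high ones after PTX in both genotypes. The log2 fold change was 2.25 ± 0.46 (SE, adjusted p = 0.0124) in fl/fl and 2.26 ± 0.46 (adjusted p = 0.019) in CKO. No single library ended the call in fl/fl, while in CKO it was lost without PTX CKO replicate 1 (adjusted p = 0.0557) or 2 (0.0793) or without vehicle CKO replicate 2 (0.0864) or 3 (0.0521). Fitting the 2 fl/fl groups alone ended the calls of Stmn2 (2.11, adjusted p = 0.0529), Stmn3 (0.0864), Mtap1b (0.0783) and Mapt (0.0632) in fl/fl.

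Stmn3 (SCLIP), a close neuronal relative of Stmn2, showed nearly the same order of libraries. Its levels were 1320, 1138, 617 and 667.9 CPM in PTX fl/fl and 182.9, 67.8, 286.7 and 404.8 CPM in vehicle fl/fl. In CKO they were 994.5, 1311, 456.4 and 428.8 CPM after PTX and 170, 71.6, 136.8 and 198.8 CPM after vehicle. Here too every PTX library was above every vehicle library. Stmn3 rose by 1.99 ± 0.508 on the log2 scale (adjusted p = 0.0341) in fl/fl and by 2.47 ± 0.517 (adjusted p = 0.0211) in CKO. In fl/fl the call was lost without PTX replicate 1 (adjusted p = 0.114) or 2 (0.095) or without vehicle replicate 1 (0.104), 2 (0.0773) or 3 (0.0621). In CKO it was lost without PTX replicate 1 (0.0585) or 2 (0.0845) or without vehicle replicate 2 (0.0898) or 3 (0.0641). With library totals and no scaling factor the adjusted p in fl/fl was 0.051.

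Stmn1, the stathmin also used by dividing cells, was the lowest of the 3 well-measured stathmins. It stood at 39.45, 42.45, 37.07 and 46.12 CPM in PTX fl/fl and at 15.51, 19.67, 28.42 and 20.37 CPM in vehicle fl/fl, groups that did not overlap. In CKO the values were 31.51, 49.06, 31.04 and 23.39 CPM after PTX and 32.1, 12.73, 19.43 and 18.13 CPM after vehicle, and the groups overlapped. The log2 differences, 0.97 ± 0.412 (adjusted p = 0.198) and 0.71 ± 0.411 (adjusted p = 0.36), did not pass the test. With limma-voom and quality weights the difference in fl/fl had an adjusted p of 0.0243, where 5283 of 14200 genes in all were called. The 13 markers of cycling cells held 0.00387 to 0.0331% of the counts in PTX fl/fl and 0.0209 to 0.0514% in vehicle fl/fl, and their part in the level of Stmn1 was not tested.

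Stmn4 (RB3), a stathmin of neurons, was near the lower end of what was measured. Its levels were 10.21, 11.87, 11.44 and 12.9 CPM in PTX fl/fl, 1.967, 3.747, 7.166 and 13.06 in vehicle fl/fl, 16.84, 11.58, 9.385 and 7.517 in PTX CKO, and 4.264, 3.099, 0 and 5.836 in vehicle CKO. Vehicle fl/fl replicate 4 reached the PTX range, while in CKO the groups did not overlap. The log2 differences of 0.84 ± 1.04 and 1.77 ± 1.07 did not pass (adjusted p = 0.713 and 0.381).

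Within the family, Stmn2 and Stmn3 shifted little against each other. Stmn2 made up 64.7 to 67.5% of the summed stathmin counts in PTX fl/fl and 58.6 to 61.4% in vehicle fl/fl, ranges that did not overlap, but 63.4 to 68.8% and 60.3 to 72.7% in CKO, where they did. The ratio of Stmn2 to Stmn3 counts lay between 1.55 and 2.07 in vehicle fl/fl, 1.9 and 2.26 in PTX fl/fl, 1.84 and 3.04 in vehicle CKO, and 1.81 and 2.4 in PTX CKO. Stmn1 made up 1.8 to 8.49% of stathmin counts in vehicle fl/fl and 1.02 to 2.06% in PTX fl/fl, against 2.9 to 6.17% and 1.11 to 1.95% in CKO. These shares were not tested.

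Mtap1b, which encodes the axonal lattice protein MAP1B, had the highest counts of the 10 genes and rose in both genotypes. Its levels in PTX fl/fl were 5851, 6149, 3447 and 4061 CPM and in vehicle fl/fl 1235, 693.9, 1292 and 2616 CPM. In CKO they were 5059, 6320, 3055 and 4253 CPM after PTX and 1549, 651.6, 1082 and 1067 CPM after vehicle. All 8 PTX libraries were above all 8 vehicle libraries, the highest of which was vehicle fl/fl replicate 4. The log2 fold change was 1.74 ± 0.381 (adjusted p = 0.0161) in fl/fl and 2.10 ± 0.385 (adjusted p = 0.0139) in CKO. In fl/fl the call was lost without PTX replicate 1 (adjusted p = 0.0586) or 2 (0.0578) or without vehicle replicate 1 (0.0608), and in CKO without PTX replicate 2 (0.0552) or vehicle replicate 2 (0.0598).

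Mapt, the gene of tau, rose with smaller fold changes than Stmn2, Stmn3 and Mtap1b, a difference that was not tested. It stood at 387.3, 391.8, 254.9 and 417.9 CPM in PTX fl/fl and at 121.7, 178.5, 175.9 and 184.4 CPM in vehicle fl/fl, without overlap. In CKO the values were 412.8, 435.6, 188.6 and 301.4 CPM after PTX and 171.4, 93.62, 193.8 and 130.8 CPM after vehicle, where PTX replicate 3 lay within the vehicle range. The log2 fold change was 1.14 ± 0.304 (adjusted p = 0.0409) in fl/fl and 1.18 ± 0.305 (adjusted p = 0.048) in CKO. Both calls were close to the threshold, and upper-quartile scaling ended them (adjusted p = 0.0575 and 0.0522). So did library totals with no scaling factor in fl/fl (0.0543), and RLE scaling (0.0663), no low-count filter (0.0538) and the compared groups alone (0.142) in CKO. In fl/fl the call was lost without PTX replicate 1 (adjusted p = 0.119), 2 (0.113) or 4 (0.0696), without any 1 of vehicle replicates 1 to 4 (0.13, 0.0856, 0.0767 and 0.0634), and without PTX CKO replicate 1 (0.0534), a library outside the comparison whose loss also changed the genes tested, the scaling and the pooled spread. In CKO it was lost without PTX replicate 1 (0.135), 2 (0.169) or 4 (0.0569), without any 1 of vehicle replicates 1 to 4 (0.0707, 0.155, 0.07 and 0.0906), and, also outside the comparison, without any 1 of the PTX fl/fl libraries (0.0608, 0.0696, 0.0545 and 0.0502) or vehicle fl/fl replicates 1, 3 or 4 (0.0501, 0.0596 and 0.0601).

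Dcx, best known from migrating young neurons, was barely detected. Its counts were 48, 19, 23 and 0 in PTX fl/fl, 0, 0, 24 and 1 in vehicle fl/fl, 0, 92, 0 and 0 in PTX CKO, and 0 in all 4 vehicle CKO libraries. Set against a floor of 3 counts over the vehicle CKO group, PTX CKO was at least 28-fold higher, but all 92 counts came from replicate 2. Neither PTX comparison passed in edgeR (adjusted p = 0.71 in fl/fl and 0.193 in CKO), whereas DESeq2 called Dcx in CKO with an adjusted p of 1.38e-07. DESeq2 called 1341 of 14118 genes in all there.

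Of the end-binding proteins, Mapre1 and Mapre2 showed no difference that passed, while Mapre3 rose in CKO. Mapre1 (EB1), which is used by most cell types, stood at 248.3, 253.7, 204 and 172.6 CPM in PTX fl/fl, 195.6, 305.2, 168.2 and 157 in vehicle fl/fl, 156, 236, 247.8 and 154.5 in PTX CKO, and 185.1, 167.7, 204.2 and 234.3 in vehicle CKO. All 4 groups overlapped. The log2 difference was 0.089 ± 0.268 in fl/fl, with a 95% confidence interval of -0.476 to 0.655, and 0.0058 ± 0.268 in CKO, with an interval of -0.56 to 0.572 (adjusted p = 0.901 and 0.994).

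Mapre2 (EB2) ranged from 358.5 to 552.4 CPM in PTX fl/fl, 307.4 to 493.7 in vehicle fl/fl, 375 to 582.5 in PTX CKO and 252.9 to 511.5 in vehicle CKO. Its groups overlapped in both genotypes. The log2 differences were 0.11 ± 0.277 (interval -0.474 to 0.696, adjusted p = 0.879) and 0.41 ± 0.277 (interval -0.175 to 0.995, adjusted p = 0.443).

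Mapre3 (EB3), the end-binding protein enriched in neurons, stood at 253.8, 219.7, 174.9 and 103.3 CPM in PTX fl/fl and at 82.92, 101.4, 105.9 and 110.1 CPM in vehicle fl/fl. In CKO it stood at 194.1, 225.4, 110.4 and 171.3 CPM after PTX and at 80.35, 74.37, 68.78 and 75.14 CPM after vehicle. PTX fl/fl replicate 4 was within the vehicle range, whereas in CKO the groups did not overlap. The log2 difference was 0.91 ± 0.287 in fl/fl, which did not pass (adjusted p = 0.0821), and the gene rose by 1.23 ± 0.289 in CKO (adjusted p = 0.0328). DESeq2 and limma-voom also called it in fl/fl (adjusted p = 0.0365 and 0.000854), where they called 1517 of 14118 and 5283 of 14200 genes in all. So did edgeR without PTX fl/fl replicate 4 (adjusted p = 0.0221) and with title date as a term (0.0264). In those 2 fits 845 of 14585 and 1500 of 14200 genes in all were called, against 704 of 14200 in the main fit. The call in CKO was lost without PTX CKO replicate 1 (0.0959) or 2 (0.132) or without any 1 of vehicle CKO replicates 1 to 4 (0.0608, 0.101, 0.0883 and 0.0581), and with the compared groups alone (0.0782).

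In all, 5 genes had every PTX library above every vehicle library in fl/fl (Stmn1, Stmn2, Stmn3, Mtap1b and Mapt), against 11% of all genes tested. In CKO the 5 were Stmn2, Stmn3, Stmn4, Mtap1b and Mapre3, against 8.91% of all genes. Over both genotypes, Stmn2, Stmn3 and Mtap1b had all 8 PTX libraries above all 8 vehicle libraries, which held for 3.42% of all genes.

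**Figure D2:**
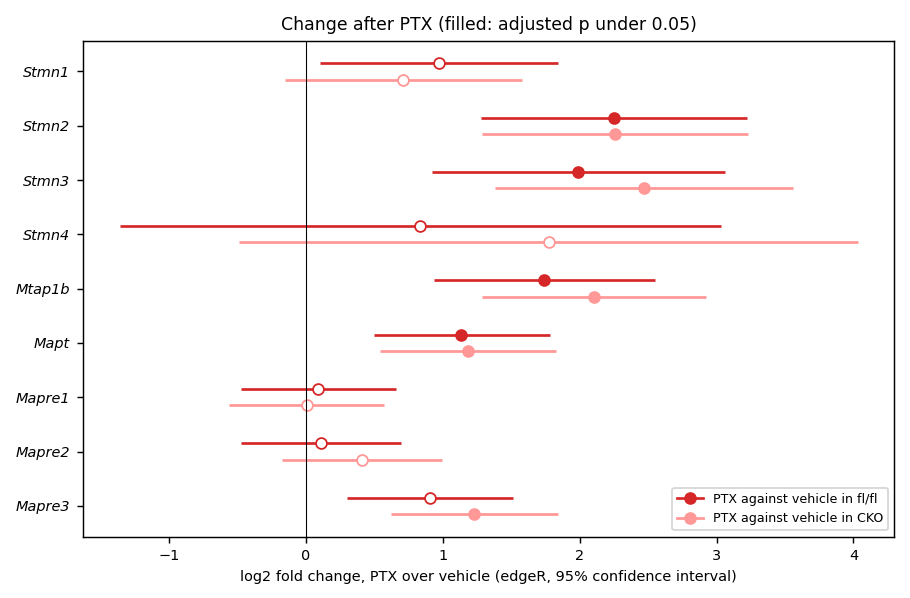
Log2 fold change after PTX with its 95% confidence interval, for fl/fl and CKO, with points filled where the adjusted p was under 0.05; Dcx is left out because it had no count in vehicle CKO. The intervals of Mapre1 and Mapre2 include 0 in both genotypes, and those of Stmn2, Stmn3, Mtap1b, Mapt and Mapre3 lie above 0.

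The stretch upstream of the start is shown for Stmn3 and Mtap1b, which rose together, and for Mapre1, which showed no difference that passed. Each sequence is the 250 bases before the RefSeq start in GRCm38.p6, read 5′ to 3′ on the gene's strand: chr2:181314501-181314750 (minus strand) for Stmn3, chr13:99516603-99516852 (minus strand) for Mtap1b and chr2:153741037-153741286 (plus strand) for Mapre1. Capitals mark a match on either strand to any of 6 motifs. These were the GC box, spelled GGGCGG, which binds Sp1-type factors, the CCAAT box, searched by those letters, and the TATA box, spelled TATAAA. The others were the E-box, spelled CANNTG with any base at N, the core of the cAMP response element, spelled TGACG, and the AP-1 motif, spelled TGANTCA.
Stmn3: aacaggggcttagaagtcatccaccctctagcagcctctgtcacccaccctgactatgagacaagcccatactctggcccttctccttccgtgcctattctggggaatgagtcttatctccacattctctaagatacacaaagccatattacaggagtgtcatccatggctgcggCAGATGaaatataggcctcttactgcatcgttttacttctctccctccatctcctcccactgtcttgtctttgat
Mtap1b: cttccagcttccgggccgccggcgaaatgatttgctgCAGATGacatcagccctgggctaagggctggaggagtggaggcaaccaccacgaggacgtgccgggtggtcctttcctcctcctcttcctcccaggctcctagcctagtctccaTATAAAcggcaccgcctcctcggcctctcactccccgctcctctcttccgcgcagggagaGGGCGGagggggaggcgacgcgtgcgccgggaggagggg
Mapre1: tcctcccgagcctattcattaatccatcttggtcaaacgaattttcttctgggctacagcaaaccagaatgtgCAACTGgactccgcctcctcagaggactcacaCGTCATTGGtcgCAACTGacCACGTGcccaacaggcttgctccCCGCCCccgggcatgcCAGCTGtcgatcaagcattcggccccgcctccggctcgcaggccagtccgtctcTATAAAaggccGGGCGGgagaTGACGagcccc

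The Stmn3 stretch held 3 CG pairs and 1 match, an E-box of the letters CAGATG. The Mtap1b stretch held 19 CG pairs, a TATA box, a GC box and 1 E-box, again CAGATG. The Mapre1 stretch held 17 CG pairs, 4 E-boxes, 2 GC boxes, 2 TGACG cores, 1 TATA box and 1 CCAAT box that shares a base with a TGACG core. Over 32851 stretches of this length in the RefSeq table, the median was 6 CG pairs, and 66.2% held CANNTG, 14.4% CAGATG (a search added after these 3 were read), 32.7% GGGCGG, 12.4% TATAAA, 33.8% CCAAT, 17.8% TGACG and 6.75% TGANTCA. These are matches of letters and not measured sites. The table matched 5 of the 10 genes (these 3, Dcx and Mapre3) and not Stmn1, Stmn2, Stmn4, Mapt and Mapre2.

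Levels can be set side by side between genes only per length, here CPM per kb of the merged exons in GENCODE vM21 (GRCm38), while the counts were made on mm9. Merged exons join all annotated transcripts of a gene, 5602 bases for Stmn2 and 1136 for Stmn3, so the order depends on this length. In CPM the mean of Stmn2 in PTX fl/fl was above that of Stmn3 (1938 and 935.6). In PTX fl/fl Stmn3 was at the top with 823.6 ± 306 CPM per kb (SD, n = 4), followed by Stmn2 with 345.9 ± 105 and Mtap1b with 307.8 ± 83.7. Stmn2 and Mtap1b, neighbours in that order, differed by less than their SD. Next came Mapre3 (54.32 ± 18.8), Mapt (48.2 ± 9.73) and Mapre2 (43.64 ± 8.79), where each was within 1 SD of the next. Mapre1 (28.13 ± 4.93), Stmn1 (21.47 ± 2.03), Stmn4 (6.054 ± 0.58) and Dcx (0.1582 ± 0.131) closed the order. In vehicle fl/fl Mapre2 was at 40.4 ± 7.72 CPM per kb, above Mapre3 (28.94 ± 3.46), Mapre1 (26.44 ± 8.67) and Mapt (21.92 ± 3.87), and Stmn3 was at 207.4 ± 127.

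Sensory neuron markers moved with the genes that rose. Of the 18 markers, none of which is among the 10 genes, 11 rose in fl/fl and none fell, while 6 of 10 satellite glia and 9 of 12 Schwann cell markers fell and 1 Schwann cell marker rose. In CKO 8 of the 18 neuron markers rose and none fell, while 1 of 10 satellite glia and 6 of 12 Schwann cell markers fell. Of fibroblast markers 5 of 9 fell in fl/fl and 3 of 9 in CKO, and of macrophage markers 2 of 11 and 0 of 11. None of 13 neutrophil and 7 endothelium markers was called, with median log2 fold changes of -1.74 and -1.97 in fl/fl and -1.66 and -2.04 in CKO. Of all genes, 3.2% rose and 1.76% fell in fl/fl, and 2.22% rose and 0.359% fell in CKO. A larger share of neurons in a pool of sorted cells and more RNA of these genes per neuron cannot be told apart in such libraries. Counts were also set against the summed counts of the 18 neuron markers in the same library, which does not separate these either. The sum is of raw counts, so abundant markers such as Prph, Tubb3 and Uchl1 weigh more than the others. Tubb3 was also the gene nearest to Stmn3 in level over the 16 libraries (Pearson's r = 0.996), so a narrow range of Stmn3 is partly built into this scale. On this scale Stmn3 ranged only from 51.7 to 76.7 per 1000 neuron marker counts over the 16 libraries, a range of 1.48-fold, where its CPM ranged over 19.5-fold. Stmn2 ranged from 95.4 to 186, or 1.95-fold against 18.6-fold in CPM, and Mtap1b from 284 to 727, or 2.56-fold against 9.7-fold.

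The other well-measured genes varied more on this scale than in CPM. Mapt ranged over 9.95-fold (4.65-fold in CPM), Stmn1 over 10.8-fold (3.86-fold), Mapre3 over 10.8-fold (3.69-fold), Mapre2 over 23.3-fold (2.3-fold) and Mapre1 over 31.6-fold (1.97-fold). Mapre1 stood at 12 to 19 per 1000 neuron marker counts in PTX fl/fl and 25.2 to 320 in vehicle fl/fl, and at 10.1 to 30.5 and 56.3 to 143 in CKO. In each genotype 4 of the 10 genes had every PTX library below every vehicle library on this scale, against 45.2% of all genes in fl/fl and 41.3% in CKO. These were Mapre1, Mapre2 and Mapre3 in both, with Stmn3 in fl/fl (57.3 to 64 against 65 to 76.7) and Stmn1 in CKO (2.05 to 3.82 against 5.31 to 10.9).

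**Figure D3:**
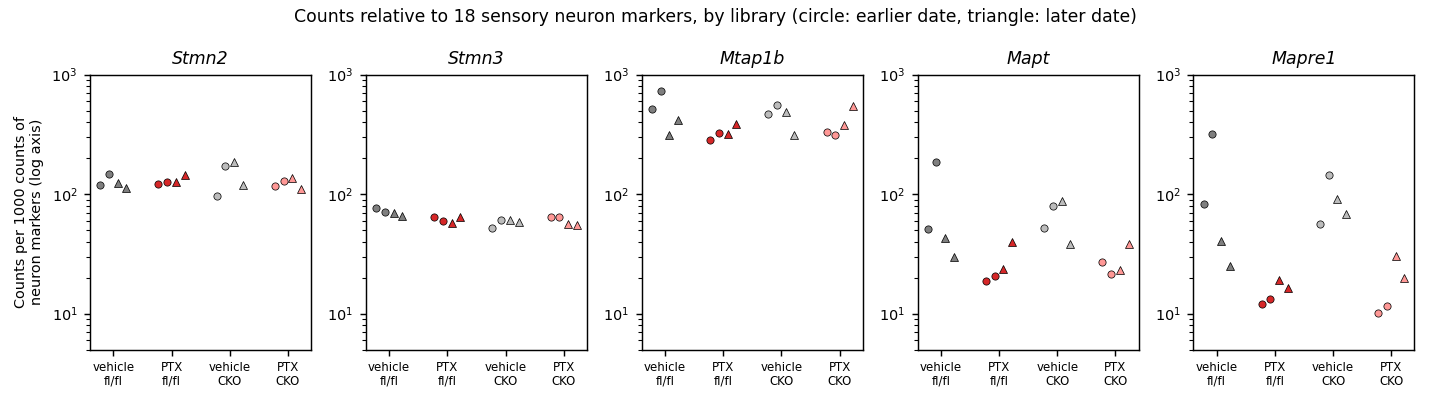
Counts of 5 of the genes per 1000 counts of the 18 sensory neuron markers in the same library, on a log axis, by group; circles are libraries of the earlier title date and triangles those of the later one. Stmn3 lies between 51.7 and 76.7 in all 16 libraries. Mapre1 spans 10.1 to 320 and is lower in every PTX library than in every vehicle library of the same genotype, which held for 45.2% of all genes in fl/fl and 41.3% in CKO.

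Refitting all genes with libraries scaled to the neuron marker counts moved the median log2 fold change of all genes to -2.67 in fl/fl and -2.38 in CKO, and called 55.3% and 45.3% of all genes lower and 0.254% and 0.669% higher. On this scale no call of a rise remained among the 10 genes. Stmn2 was at 0.0425 ± 0.52 in fl/fl and -0.22 ± 0.52 in CKO, Stmn3 at -0.206 ± 0.468 and 0.0486 ± 0.468, and Mtap1b at -0.591 ± 0.604 and -0.226 ± 0.602 (adjusted p from 0.395 to 0.947). Relative to the median of all genes, Stmn2 was 2.71 and 2.16 higher, Stmn3 2.46 and 2.43, and Mtap1b 2.08 and 2.15. Lower calls fell to Mapt (-1.59, adjusted p = 0.0362), Mapre1 (-2.94, 0.00555), Mapre2 (-2.51, 0.0107) and Mapre3 (-1.88, 0.0165) in fl/fl, and to Mapre1 (-2.32, 0.0183) and Mapre2 (-2.1, 0.0281) in CKO. Mapre1 and Mapre2 lay within 0.284 of the median of all genes in both genotypes.

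The title dates split the PTX libraries too. Stmn2, Stmn3, Mtap1b and Mapre3 were higher in all 4 PTX libraries of the earlier date than in all 4 of the later date, against 12.7% of all genes. Stmn2 averaged 2326 CPM on the earlier and 1206 on the later PTX date, Stmn3 1191 and 542.6, Mtap1b 5845 and 3704, and Mapre3 223.2 and 140. Among the vehicle libraries the order was the other way for Stmn2, 235.2 on the earlier and 505.5 CPM on the later date without overlap, which held for 1.94% of all genes. Scn10a, from the neuron marker list, averaged 1094 and 359.9 CPM on the PTX dates and 39.15 and 137.1 on the vehicle dates. Neutrophil markers held 0.562 and 1.05% of the counts in PTX fl/fl and 0.0316 and 0.0993% in PTX CKO on the earlier date. On the later PTX date they held 10.5 and 5.52%, and 12 and 6.8%. In vehicle fl/fl they held 18.2 and 17.2% on the earlier and 8.41 and 8.67% on the later date. In vehicle CKO the order was the other way, 7.59 and 12.3% and then 18.8 and 19.1%. The part of the dates in the PTX differences was not tested apart from treatment, since no date holds both.

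Leaving out dates changed the calls. Without the 4 PTX libraries of the earlier date 4 of 14702 genes in all were called in fl/fl and 0 in CKO, and none of the 10 genes was among them. In fl/fl Stmn2 was at 1.76 (adjusted p = 0.246), Stmn3 at 1.39 (0.437), Mtap1b at 1.32 (0.367) and Mapt at 0.99 (0.381). In CKO the log2 fold changes were then 1.54 for Stmn2 (0.461), 1.6 for Stmn3 (0.489), 1.73 for Mtap1b (0.379), 0.72 for Mapt (0.624) and 0.9 for Mapre3 (0.527). Without the 4 PTX libraries of the later date 5 of the 10 genes were called in each genotype, Mapre3 in fl/fl among them (1.25, adjusted p = 0.0074), where 1923 and 2077 of 14891 genes in all were called. Without the 4 vehicle libraries of the earlier date none was called in fl/fl (Stmn2 1.53, adjusted p = 0.12) and 3 in CKO, beside 47 and 275 of 14843 genes in all. Without those of the later date 3 were called in each genotype, Stmn2, Stmn3 and Mtap1b, beside 685 and 336 of 14732 genes in all. All of these values kept the sign of the full fit.

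Genotype made no difference that passed for any of the 10 genes. Under PTX, 0 of 10 were called in CKO against fl/fl, and 0% of all genes. Log2 differences there ran from -0.29 to 0.13, with Stmn2 at -0.28 ± 0.439 and a 95% confidence interval of -1.21 to 0.646. Under vehicle, 0 of 10 were called, and 0.0211% of all genes. Mapre3 was lower in all 4 CKO than in all 4 fl/fl libraries (-0.42 ± 0.285, adjusted p = 1), which held for 1.68% of all genes, and Stmn3 was at -0.71 ± 0.493 with overlapping groups. Per 1000 neuron marker counts, Stmn3 under vehicle was lower in all 4 CKO libraries (51.7 to 61.2) than in all 4 fl/fl libraries (65 to 76.7), which held for 0.451% of all genes, while under PTX the ranges of 54.8 to 64.6 and 57.3 to 64 overlapped. In the test of whether the PTX difference itself differed between genotypes, 0 of 10 were called, and 0.00704% of all genes. That difference was 0.007 ± 0.62 for Stmn2 (interval -1.3 to 1.32), 0.48 ± 0.693 for Stmn3 and 0.32 ± 0.402 for Mapre3, whose call in CKO alone is thus not shown to differ from fl/fl.

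At an unadjusted p under 0.05, 0 of the 10 genes passed in each of these 3 comparisons, against 1.87%, 4.61% and 3.35% of all genes. limma-voom called none of the 10 genes in them, and DESeq2 called only Dcx, under vehicle and in the interaction. The comparisons within PTX and within vehicle use libraries that also enter the PTX comparisons.

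Other regulators of microtubules were taken from 5 lists, and their counts stand beside 3.2% of all genes higher and 1.76% lower in fl/fl and 2.22% and 0.359% in CKO. Of 16 tested structural microtubule-associated proteins, 3 rose in fl/fl and none fell, with a median of 1.47. Mtap1a, the dendritic and axonal partner of Mtap1b, rose from 121.3 ± 62.38 to 392.5 ± 64.3 CPM (SD, n = 4), by 1.69 ± 0.331 on the log2 scale (adjusted p = 0.0104). Tppp3, a tubulin polymerisation promoting protein, rose by 2.18 ± 0.509 (adjusted p = 0.0222), and Mtap6, which protects microtubules from cold, by 1.86 ± 0.515 (adjusted p = 0.0474). In CKO 2 of these 16 rose, Mtap1a (2.03 ± 0.335, adjusted p = 0.00911) and Tppp3 (2.12 ± 0.508, adjusted p = 0.0357).

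Among 22 proteins of the plus end, the minus end or cross-linking, 1 rose in each genotype, with medians of 0.311 and 0.271. This was Clip3, a linker of membranes to microtubules (1.72 ± 0.386, adjusted p = 0.0186 in fl/fl; 1.85 ± 0.388, adjusted p = 0.0211 in CKO). Of 7 severing enzymes 1 fell in fl/fl and none was called in CKO. Fign (fidgetin) was at 9.111 ± 3.12 CPM in PTX fl/fl and 50.68 ± 17.97 in vehicle fl/fl, a log2 fold change of -2.48 ± 0.557 (adjusted p = 0.0186), and at 29.62 ± 20.28 and 54.15 ± 18.46 CPM in CKO (-0.87 ± 0.531, adjusted p = 0.386).

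Of 17 tubulin-modifying enzymes 2 rose in fl/fl and none fell, with a median of 0.847. These were Agtpbp1, a deglutamylase (1.82 ± 0.446, adjusted p = 0.0281), and Ttll7, a polyglutamylase (2.33 ± 0.6, adjusted p = 0.0355). In CKO 1 rose, the polyglutamylase subunit Ttll1 (2.50 ± 0.57, adjusted p = 0.0294). Of 19 kinases that act on stathmins and microtubule-associated proteins, 2 rose in fl/fl: Mapk10, the neuronal JNK3 (2.85 ± 0.632, adjusted p = 0.0171), and Gsk3b, a tau and MAP1B kinase (1.26 ± 0.243, adjusted p = 0.00995). In CKO 1 rose, Mapk10 (2.79 ± 0.631, adjusted p = 0.0286). Without the PTX libraries of the earlier date none of the 9 genes named for fl/fl in these lists was called (adjusted p from 0.246 to 0.539), nor without the vehicle libraries of the earlier date (0.0897 to 0.445). Leaving out 1 library at a time kept the calls of Mtap1a and Gsk3b. Without PTX fl/fl replicate 1 or 2 the other 7 lost theirs: Tppp3 (adjusted p = 0.0787 and 0.0646), Mtap6 (0.145 and 0.133), Clip3 (0.071 and 0.0652), Fign (0.0809 and 0.0644), Agtpbp1 (0.103 and 0.0897), Ttll7 (0.115 and 0.095) and Mapk10 (0.0572 and 0.0519). Without vehicle fl/fl replicate 1 the calls of Tppp3 (0.0781), Mtap6 (0.145), Clip3 (0.0605), Fign (0.054), Agtpbp1 (0.0798) and Ttll7 (0.109) were lost. Without replicate 2 of that group those of Tppp3 (0.0533), Mtap6 (0.124), Clip3 (0.0607), Agtpbp1 (0.0657), Ttll7 (0.0973) and Mapk10 (0.0607) were lost. Ttll7 was also lost without vehicle fl/fl replicate 3 (0.0931) or vehicle CKO replicate 2 (0.0502). Mtap6, the closest to the threshold, was lost in 17 of 31 alternatives, among them those without PTX fl/fl replicate 4 (0.053), vehicle fl/fl replicate 4 (0.053), PTX CKO replicates 1, 3 or 4 (0.0619, 0.055 and 0.0501) and vehicle CKO replicates 1 or 2 (0.0554 and 0.0717). With the compared groups alone Mtap1a (0.0529), Tppp3 (0.0699), Mtap6 (0.101), Agtpbp1 (0.0561), Ttll7 (0.0759) and Mapk10 (0.0708) did not pass.

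**Figure D4:**
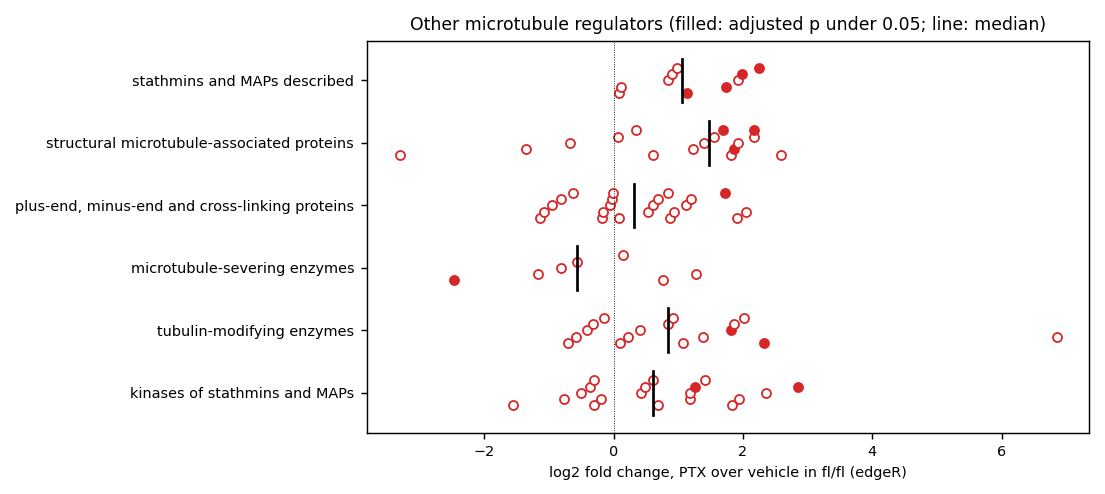
Log2 fold change after PTX in fl/fl of each tested gene in the set of 10 and in 5 other lists of microtubule regulators, 1 point per gene, filled where the adjusted p was under 0.05, with a line at the median of each list. Filled points lie above 0 in each list except the severing enzymes, where Fign lies at -2.48.

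The genes whose levels were most like those of Stmn2 and Stmn3 were found by Pearson's r of log2(CPM + 1) over the 16 libraries, among 11609 tested genes of at least 5 CPM, as a description. PTX and vehicle libraries stand apart, so r was also taken after subtracting each group's mean, where libraries still share title dates. For Stmn3 the nearest were Tubb3, the neuronal beta-tubulin (0.996), Uchl1 (0.992) and Ywhag (0.988), and within groups Tubb3 (0.993), Uchl1 (0.977) and Avil (0.972). Tubb3, Uchl1 and Avil are on the neuron marker list. For Stmn2 the nearest were Tubb3, Tubb2a and Uchl1 (0.988 each), and within groups Tubb3 (0.969), Stmn3 (0.967) and Ywhag (0.962). Mtap1b was nearest to Gabarapl1 (0.979), Rufy3 (0.979) and Ncdn (0.978), and within groups to Mtap7d2 (0.942), itself a microtubule-associated protein.

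The end-binding proteins had other neighbours. The neighbours of Mapre1 included Ldha (0.769) and the lysosomal protease gene Ctsd (0.768), and within groups it was nearest to Klf10 (0.928) and Ctsd (0.841). Mapre3 was nearest to Atp6v1a (0.961), a subunit of the vacuolar proton pump, Rfk (0.958) and Slc22a18 (0.957), Mapre2 to Cdr2 (0.893), and Mapt to Flywch1 and BC048546 (0.937 each). Within groups, Stmn2 and Stmn3 were at r = 0.967 with each other and at 0.845 and 0.897 with Mtap1b, whereas Mapre1 was at -0.169, -0.194 and -0.277 with these 3.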

How the data were processed

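RNA was measured in 16 libraries. Stranded mRNA libraries were made from roughly 500 ng of RNA and sequenced as single reads of 50 bases, per the labels' protocols. The authors used bcl2fastq, TopHat2 and HTSeq with build mm9, per the submitters' processing notes, and versions are not given in the sources used here. The files hold whole-number counts for each gene as the authors deposited them, not normalized, and the 5 HTSeq summary lines were left out of library sizes. Of the counted alignments, 32.88 to 43.48% were assigned to genes, 13.73 to 25.39% to no feature, 39.54 to 44.18% were not unique and 0.262 to 0.423% were ambiguous.

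Counts were filtered with filterByExpr, TMM-scaled and modelled in edgeR 4.0.16 in R 4.3.3 (quasi-likelihood F test, two-sided, robust, 1 mean per group, all 16 libraries, 12 residual degrees of freedom). The common biological coefficient of variation was 0.939. P-values were adjusted by the Benjamini-Hochberg method over 14200 genes, and SE is the fold change divided by the root of F. Replicate libraries differed beyond counting noise in each of 24 pairs (chi-square over its degrees of freedom of at least 20.3). Replicate numbers were checked for pairing by the correlation of deviations from group means. It was 0.48, 0.519, 0.535 and 0.243 for CKO against fl/fl under PTX, where differently numbered libraries reached 0.667 and a replicate block changed no call. For CKO against fl/fl under vehicle it was -0.057, 0.0329, -0.00534 and -0.0316. Same-numbered libraries share a title date in both of these comparisons. Elsewhere it ran from -0.236 to 0.133.

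Named genes are the 10 genes, up to 3 called per other list with the smallest adjusted p in fl/fl, or the 2 most abundant where none was called (plus Ttll1, chosen after its value was seen), and for each of the 10 the 3 genes with the highest r, of which part is given. The genes and lists were chosen with earlier results of these data known. Camsap3 and Ly6g were not analysed here. Alternatives were RLE, upper-quartile and neuron marker scaling, 2 filters, the compared groups alone, blocks for replicate or date, limma-voom (limma 3.58.1), DESeq2 1.42.0, and leaving out each library or date. Library totals with no scaling factor were added after seeing the data. Tested on simulated counts for PTX against vehicle in fl/fl (13774 genes), the fit called 0% of 2-fold, 22% of 4-fold, 40% of 8-fold and 66% of 16-fold changes, with 1 false call. Intervals and floors on counts cover counting error only.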

Additional observations from a re-analysis of the deposited data

Results flagged for a closer look

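Of 40 groups of 4 libraries looked at (10 genes in 4 groups), 4 had a library far from the other 3 on the log2(CPM + 1) scale. For normally spread values chance gives about 1 in 20. That rate does not hold for the Dcx groups below, which include libraries without a count. The gap to the nearest library, as a share of the whole range, is compared with the critical value of Dixon's test at the 95% level. Mapt was low in PTX fl/fl replicate 3, at 254.9 CPM against 387.3 to 417.9 in the others, with a share of 0.846. Mapt was also low in vehicle fl/fl replicate 1, at 121.7 CPM against 175.9 to 184.4, with a share of 0.885.

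Dcx was high in vehicle fl/fl replicate 3, at 1.977 CPM where the next library had 0.08315, with a share of 0.927. It was also high in PTX CKO replicate 2, at 8.731 CPM where the other libraries had none, with a share of 1. Those 2 libraries hold 24 and 92 of the Dcx counts.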

How the results depend on the processing

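Over the alternatives, 784 of 987 values for single genes kept their direction and their side of the threshold, 154 kept the direction and lost the call, 7 gained it and 42 changed sign. The number of the 10 genes called after PTX (4 in fl/fl and 5 in CKO) was 0 and 3 with the compared groups alone, 0 and 0 without the earlier PTX date, 0 and 3 without the earlier vehicle date, and 3 in CKO without the later vehicle date. It was 2 in fl/fl with library totals and no scaling factor, where 472 of 14200 genes in all were called. With the compared groups alone 475 of 13270 genes in all were called in fl/fl and 159 of 12734 in CKO. With each library left out in turn the number of the 10 genes called ran from 1 to 4 in fl/fl and from 0 to 5 in CKO. In these fits 14454 to 14585 genes were tested. Without PTX fl/fl replicate 1 or 2 or vehicle fl/fl replicate 1 the number was 1 in fl/fl, beside 177, 206 and 263 genes in all. Without vehicle fl/fl replicate 2 or 3 it was 2, beside 307 and 449 genes in all. Without PTX CKO replicate 2 or vehicle CKO replicate 2 it was 0 in CKO, beside 30 and 36 genes in all. Without PTX CKO replicate 1 or vehicle CKO replicate 3 it was 1, beside 68 and 97 genes in all. Without vehicle CKO replicate 1 or 4 it was 3, beside 209 and 340 genes in all. The main fit called 704 of 14200 genes in all in fl/fl and 366 in CKO. DESeq2 called 1 gene, Dcx, in CKO against fl/fl under vehicle and 1, again Dcx, in the interaction. The count there was otherwise 0. In all, DESeq2 called 83 and 50 of 14118 genes in these 2 comparisons.

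Replicate numbers are not stated to pair PTX with vehicle libraries. The same-number correlations were -0.195, -0.236, -0.219 and -0.19 in fl/fl and 0.133, -0.00951, 0.0752 and -0.00734 in CKO. They cannot exclude pairing, since deviations within a group also carry its title dates. A replicate block gave 2 genes in fl/fl (Stmn2, adjusted p = 0.0442, and Mtap1b, 0.0444) and 1 in CKO (Mtap1b, 0.0418). Among the other regulators it ended the calls of Tppp3 (0.0663), Mtap6 (0.0981), Fign (0.0506) and Agtpbp1 (0.0615) in fl/fl. Mtap6 also missed the threshold with upper-quartile scaling (0.06) and library totals (0.0717). Under the block the numbers of genes called among all tested were 361 and 126, against 704 and 366 without it.

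Scaling to neuron marker counts called 4 genes in fl/fl and 2 in CKO, all lower, beside 55.3% and 45.3% of all genes lower. The median of all genes on that scale was -2.67 and -2.38. The values that changed sign there were, in fl/fl, Stmn1 -1.63, Stmn3 -0.206, Stmn4 -1.33, Mtap1b -0.591, Mapt -1.59, Dcx -0.0671, Mapre1 -2.94, Mapre2 -2.51, Mapre3 -1.88, Mtap1a -0.828, Mtap6 -0.358, Clip3 -1.02, Agtpbp1 -0.997 and Gsk3b -1.29, and in CKO, Stmn1 -1.62, Stmn2 -0.22, Stmn4 -0.576, Mtap1b -0.226, Mapt -1.22, Mapre1 -2.32, Mapre2 -2.1 and Mapre3 -1.25.

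The other changes of sign fell on Mapre1, Mapre2 and Stmn4. Mapre1 in CKO was -0.0828 with RLE scaling, -0.00788 with the filter of 5 CPM in 4 libraries, -0.036 with the replicate block, -0.000317 with title date as a term, -0.012 with limma-voom, -0.0827 with DESeq2, -0.00993 without the later PTX date and -0.188 without the earlier vehicle date, and from -0.147 to 0.111 with 1 library left out. In fl/fl it was -0.00132 with the compared groups alone, -0.155 without the earlier PTX date, -0.193 without the later vehicle date, and from -0.0189 to 0.342 with 1 library left out. Mapre2 in fl/fl was -0.216 without the earlier vehicle date and from -0.00619 to 0.212 with 1 library left out. Stmn4 in CKO against fl/fl under vehicle was 0.335 without the later vehicle date, where the value over all libraries was -0.97. Beyond what a setting's own construction gives (fewer libraries), the cause of these changes was not tested. The simulated recovery of 0% of 2-fold changes was over genes drawn at random, each with its own spread. It limits what a missed threshold says for Stmn1. For Mapre1 and Mapre2 their own 95% confidence intervals are the closer measure. The upper ends were 0.655 and 0.696 in fl/fl and 0.572 and 0.995 in CKO.

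The number of all genes called in fl/fl was 1517 with DESeq2, 5283 with limma-voom and 1500 with title date as a term, and 1341, 2686 and 1798 in CKO.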

Other observations

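The ratio of the axonal lattice proteins differed between treatments in CKO: Mtap1b counts were 12.3 to 16.2 times Mapt counts in the 4 PTX CKO libraries and 5.58 to 9.04 times in the 4 vehicle CKO libraries. In fl/fl the ranges were 9.72 to 15.7 after PTX and 3.89 to 14.2 after vehicle, and they overlapped. Among the end-binding proteins, Mapre3 made up 15.1 to 24.9% of their summed counts in PTX CKO and 9.87 to 13.3% in vehicle CKO, whereas in fl/fl it made up 12.5 to 28.6% and 12.5 to 14.8%. Mapre2 stayed the most counted of the 3, at 43.4 to 67.9% over the 16 libraries. These ratios were looked at after the data were seen and were not tested.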
